A study of Homo sapiens with 6 samples.

Results

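FLT3 is a receptor tyrosine kinase of early myeloid cells, and 52 genes of families that carry or damp STAT and ERK signals were measured in leukaemia cells in which ATF4 was targeted by siRNA. The members are the protein-coding genes of the DUSP, SPRY, SPRED, SOCS, PIM and STAT families, chosen by symbol, together with FLT3, CISH, CCND2, ETV4, ETV5, EGR1, MYC, JAK1, JAK2, JAK3 and TYK2. Whole families were taken, so that 14 DUSP genes that act mostly outside ERK feedback are among them. They are 52 of 11916 protein-coding genes and of 14884 named genes in all. The rule matches 60 protein-coding symbols in RefSeq, of which 8 were not analysed here.

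The cells were MOLM14, an established human line of monocytic acute myeloid leukaemia with a KMT2A-MLLT3 fusion and an internal tandem duplication in FLT3, grown in RPMI with serum. One group of 3 arrays held RNA of cells electroporated with siRNA against ATF4 (siATF4), and the other group of 3 held RNA of cells given a non-targeting siRNA pool (siCTRL), each at 70 nM. Both groups therefore share the mutated receptor and the electroporation, and the time from transfection to harvest is not stated in the labels. The labels call the arrays technical replicates and number them 1 to 3 in each group, so each p-value here rests on the scatter of these samples alone, some of which may be technical.

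FLT3 with an internal tandem duplication signals without its ligand, mainly through STAT5 and through the RAS-ERK cascade. STAT5 raises transcription of its own inhibitors, CISH and several SOCS genes, and of the growth effectors PIM1, PIM2, CCND2 and MYC. ERK activity raises EGR1, ETV4 and ETV5, and also the Sprouty proteins and the phosphatase DUSP6, which act back on the cascade, so that the transcripts of these feedback genes are often read as a gauge of pathway output.

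The promoters of 3 members are printed with known motifs marked. They are given because CISH stands for the STAT branch, EGR1 for the ERK branch and DUSP1 for the cyclic AMP response element (CRE), the site of the CREB and ATF families. Each window runs from 250 bases before to 50 bases after the start of the gene, from RefSeq on GRCh38.p14, written 5′ to 3′ on the strand of the gene. Capitals mark the STAT motif TTCNNNGAA in CISH (chr3:50611725-50612024, minus strand), the CArG box of serum response factor in EGR1 (chr5:138465229-138465528, plus strand) and the CRE, TGACGTCA, in DUSP1 (chr5:172771146-172771445, minus strand).
CISH: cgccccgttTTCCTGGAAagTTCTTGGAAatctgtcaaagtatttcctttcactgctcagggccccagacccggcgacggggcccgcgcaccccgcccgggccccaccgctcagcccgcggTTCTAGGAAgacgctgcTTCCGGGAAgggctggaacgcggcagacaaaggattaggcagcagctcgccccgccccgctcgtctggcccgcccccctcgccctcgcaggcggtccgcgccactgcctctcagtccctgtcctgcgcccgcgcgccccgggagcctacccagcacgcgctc
EGR1: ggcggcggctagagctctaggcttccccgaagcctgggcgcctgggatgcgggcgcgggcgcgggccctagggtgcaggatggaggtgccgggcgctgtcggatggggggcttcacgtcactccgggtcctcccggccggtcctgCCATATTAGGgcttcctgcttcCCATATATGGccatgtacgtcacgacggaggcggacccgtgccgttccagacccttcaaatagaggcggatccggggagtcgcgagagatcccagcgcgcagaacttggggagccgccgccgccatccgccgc
DUSP1: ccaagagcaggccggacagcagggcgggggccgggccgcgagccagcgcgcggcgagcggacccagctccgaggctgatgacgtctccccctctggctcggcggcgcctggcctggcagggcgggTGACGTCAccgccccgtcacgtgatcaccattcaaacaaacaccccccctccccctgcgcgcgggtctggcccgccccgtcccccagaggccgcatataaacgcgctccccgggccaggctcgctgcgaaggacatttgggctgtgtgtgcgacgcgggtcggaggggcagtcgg

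The CISH window holds 4 STAT motifs, at -241, -230, -129 and -112 from the start. At least 1 such motif, read on both strands, lies in 7.66% of all 35116 promoter windows, and 4 or more lie in 7 windows. Among the 40 members with a window, the motif was found in CISH, EGR1 and DUSP3. EGR1 holds 2 CArG boxes, at -105 and -83, a box found in 1.29% of windows and in no other of the 40 members with a window. The CRE was found in DUSP1 and DUSP8 (1.85% of windows), and the composite motif TGATGNAA of ATF4 with a C/EBP partner in DUSP28 and JAK2 (3.62% of windows). These matches describe the letters only, and binding was not measured.

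Before the members are described, the state of the arrays matters. ATF4 read 7.72, 7.88 and 8.14 on siATF4 replicates 1, 2 and 3 and 8.67, 8.64 and 8.85 on the siCTRL replicates, with no overlap. It stood at 57.4% of the control level with a log2 difference of -0.80 (SE 0.14, adjusted p = 1.00 by limma over all genes), so the knockdown was partial. The median of an array lay between 3.88 and 3.96. Of the 12 markers of monocytic leukaemia 6 were measured. The lysosomal protein CD68 lay between 9.27 and 11.18 and the lysozyme gene LYZ between 8.33 and 10.87, whereas CD14, a marker of mature monocytes, stayed at 3.22 to 4.18, near the array median. The siATF4 replicate 1 array stood apart from the other 5 for some of these markers. The granule enzyme gene MPO read 5.58 there and 8.45 to 10.45 elsewhere, and the macrophage receptor CSF1R read 8.18 there and 5.05 to 6.57 elsewhere. CD68 (11.18) and SPI1 (8.52) were also highest on that array, whereas LYZ (10.68) and CD14 (3.66) lay within the range of the others. Many of the differences below are given with and without siATF4 replicate 1. Whether a lower level means fewer cells of a kind or less RNA per cell cannot be told apart in these bulk samples.

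No member was called different between siATF4 and siCTRL by limma. Members called at an adjusted p below 0.05 numbered 0 of 52 (0% of all tested genes were called), and 0 of 52 lay at an unadjusted p below 0.05 (1.46% of all tested genes did). With the replicate number as a block, 0 of 52 again passed either threshold (3.12% of all genes had an unadjusted p below 0.05). The lowest unadjusted p of a member was 0.0631, for DUSP19. By sign, 29 members were lower and 23 higher, against 46.2% of all tested genes lower. The median difference of the members was -0.04 on the log2 scale, beside 0.01 for all tested genes. CCND2 and DUSP6 were the members whose difference reached 0.5 in size (2.28% of all genes did).

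The intervals show what size of difference these arrays allow. Members varied more between arrays of a group than a typical gene. The median pooled SD within groups was 0.36 for members and 0.18 for protein-coding genes, and 37 of the 52 members lay above the latter. Members were also brighter, with a median level of 5.68 beside 5.02, and the SDs were not compared at matched levels. The 95% interval of the difference lay inside -0.5 to 0.5 for 17 members, so for these a difference of 0.5 or more in size lies outside the interval. Among them DUSP9, DUSP13A, DUSP15, DUSP21, DUSP26, DUSP29 and SPRY3 had mean levels of 3.19 to 3.81. These levels lie below the median feature of the array (3.91), where a narrow interval says less about the transcript. For 12 members the interval reached 1 in size. Half-widths ran from 0.23 for DUSP29 to 2.35 for CCND2.

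**Figure D1:**
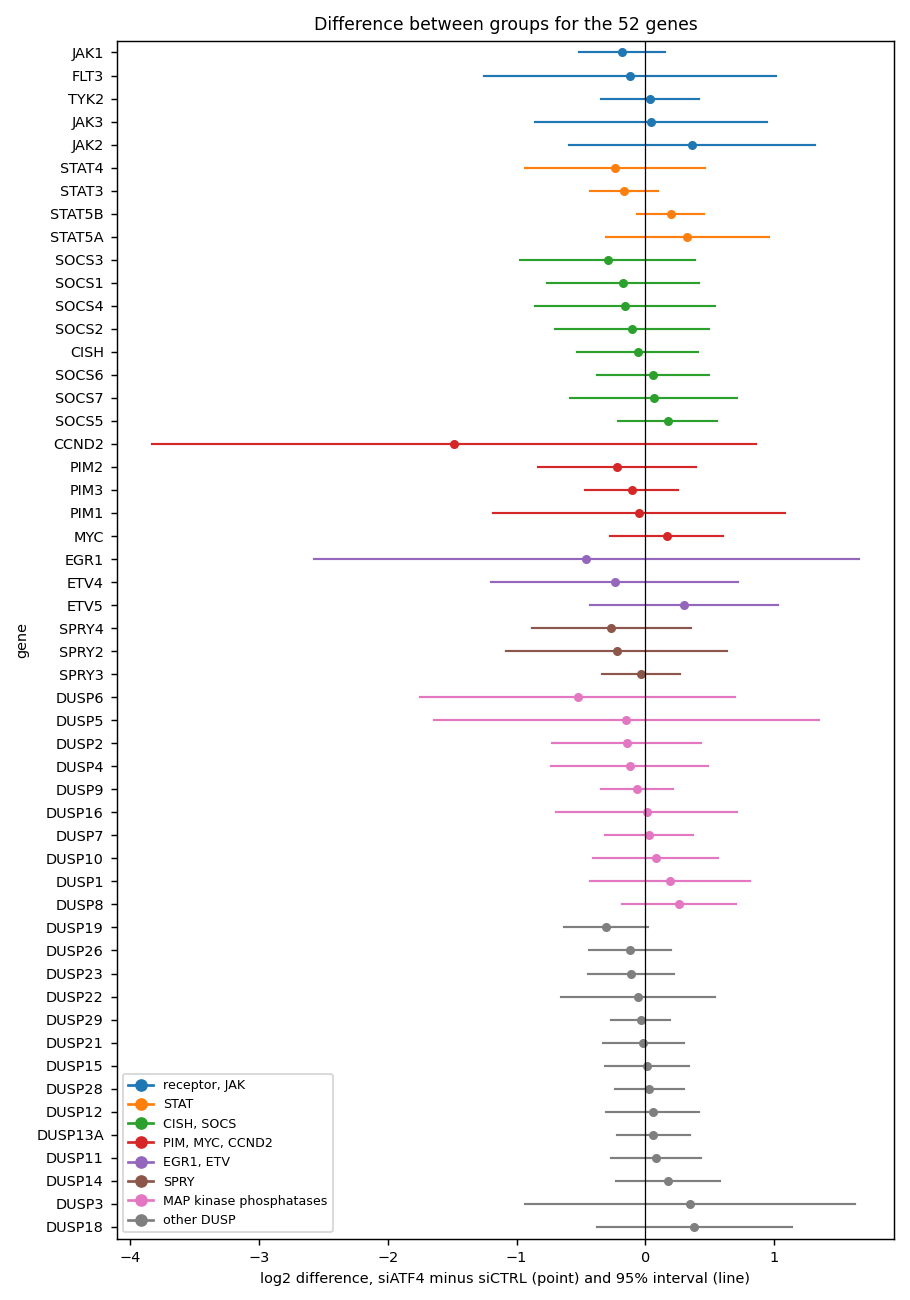
Log2 difference between siATF4 and siCTRL (x axis) for each of the 52 genes (y axis), coloured by role. Points are limma estimates and lines 95% intervals from 3 arrays against 3. All 52 intervals cross 0, with the widest for CCND2 and EGR1.

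The receptor and the Janus kinases come first in the pathway. FLT3 read 9.27, 9.58 and 8.19 on siATF4 replicates 1, 2 and 3, and 9.67, 9.46 and 8.27 on siCTRL replicates 1, 2 and 3. The groups overlapped, and the low arrays were those of number 3 in both groups. Its difference was -0.12 (95% interval -1.25 to 1.01), from -0.55 to 0.29 with 1 array left out. JAK2, the kinase bound to many cytokine receptors, read 7.94, 6.98 and 6.50 with siATF4, against 7.28, 6.31 and 6.73 with siCTRL. The high array was siATF4 replicate 1, and the difference of 0.36 (SE 0.40) became -0.03 without it. JAK1 stood at 8.05, 8.51 and 8.27 with siATF4, against 8.53, 8.42 and 8.42 with siCTRL, a difference of -0.18 (SE 0.14), or -0.07 without siATF4 replicate 1. TYK2, a kinase of the interferon receptors, and JAK3, the kinase of the common gamma chain, differed by 0.04 each, with intervals of -0.34 to 0.42 and -0.86 to 0.94.

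STAT5B, which together with STAT5A carries the signal of mutant FLT3 to the nucleus, was the 1 member whose groups did not overlap. It read 6.183, 6.128 and 6.224 with siATF4, against 6.001, 5.851 and 6.093 with siCTRL, all siATF4 arrays above all siCTRL arrays. The difference was 0.20 (SE 0.11, unadjusted p = 0.116 by limma, adjusted p = 1.00), and an exact permutation test, two-sided, gave p = 0.1, the lowest value that 3 arrays against 3 allow. One such member of 52 compares with 3.3% of all genes placed higher without overlap, and 0 members were placed lower (2.59% of all genes). STAT5A read 6.52, 6.18 and 5.50 against 5.89, 5.83 and 5.50, a difference of 0.32 (SE 0.27), or 0.10 without siATF4 replicate 1. Its high arrays were siATF4 replicates 1 and 2, and both number 3 arrays read 5.50. STAT5A and STAT5B are closely related neighbours on chromosome 17, and whether their features share probes was not tested.

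STAT3, the acute-phase factor that answers interleukin 6, was lower in every replicate number, by -0.23, -0.11 and -0.17, with a mean difference of -0.17 (95% interval -0.43 to 0.10). STAT4, the interleukin 12 factor, lay at 3.21, 3.96 and 3.33 with siATF4, against 4.15, 3.83 and 3.21 with siCTRL, levels close to the array median, and differed by -0.24 (SE 0.29), or -0.09 without siATF4 replicate 1. Only siCTRL replicate 1 passed 4 there. In all, 5 members were lower in every replicate number (9.2% of all genes), namely STAT3, CCND2, ETV4, DUSP9 and DUSP29. Another 4, STAT5B, MYC, ETV5 and DUSP3, were higher in each (14.4% of all genes).

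The STAT-induced inhibitors differed by at most 0.29 in size. CISH, which blocks STAT5 docking, read 5.82, 5.81 and 5.19 with siATF4, against 5.70, 5.79 and 5.50 with siCTRL. The difference was -0.06 (95% interval -0.53 to 0.41). SOCS3, an inhibitor of JAK kinases and of the interleukin 6 receptor chain, read 3.80, 4.29 and 3.74 against 4.63, 4.45 and 3.64, a difference of -0.29 (SE 0.29). SOCS1, the inhibitor that interferons induce, stood at 4.24, 4.48 and 3.90 against 4.73, 4.52 and 3.90, a difference of -0.18 (SE 0.25). For both, siCTRL replicate 1 was the highest array and number 3 the lowest. The type I interferon genes had their highest mean on siCTRL replicate 1 as well: the mean of 18 measured genes was 4.68, 5.84 and 4.88 with siATF4, against 6.63, 5.70 and 4.88 with siCTRL, and their part in the SOCS values was not tested. All 18 were lower in the group means, with a median of -0.56, and the medians at numbers 1, 2 and 3 were -1.79, 0.09 and 0.02. SOCS2, a brake on growth hormone and cytokine receptors, differed by -0.10, and SOCS4, SOCS5, SOCS6 and SOCS7 by -0.16, 0.17, 0.06 and 0.06. Without siATF4 replicate 1 SOCS4 differed by 0.15. Over the 8 genes of this family 5 were lower (46.2% of all genes). Groups were apart for 0 of them (2.59% of all genes lower and 3.3% higher).

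CCND2, the D-type cyclin that STAT5 raises, had the widest gap among the members. It read 3.41, 7.38 and 7.05 on siATF4 replicates 1, 2 and 3, and 7.34, 7.66 and 7.31 on siCTRL replicates 1, 2 and 3. A single array, siATF4 replicate 1, lay 3.64 below the next, at a level under the array median, while the other 5 covered 0.60. The difference was -1.49 (SE 0.99, unadjusted p = 0.177 by limma), and -0.22 without that array. A second feature of the gene, dimmer and not used in the main comparison, gave a difference of -0.59. By number the gene was lower each time, by -3.92, -0.28 and -0.25.

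The PIM kinases, survival kinases that STAT5 switches on at the transcript level, did not separate the groups. PIM1 read 6.85, 6.72 and 5.39 with siATF4, against 7.09, 6.25 and 5.76 with siCTRL, low at number 3 in both, with a difference of -0.05 (95% interval -1.18 to 1.09). PIM2 stood at 6.18, 6.46 and 6.25 against 7.04, 6.51 and 5.99, a difference of -0.22 (SE 0.26), with siCTRL replicate 1 the high array by 0.52. PIM3 differed by -0.11 (SE 0.15). MYC, the growth transcription factor downstream of both branches, read 9.05, 9.11 and 8.65 against 8.96, 8.87 and 8.48. It was higher at each number, by 0.09, 0.24 and 0.17, but the groups overlapped and the difference of 0.17 (95% interval -0.27 to 0.61) was not called.

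**Figure D2:**
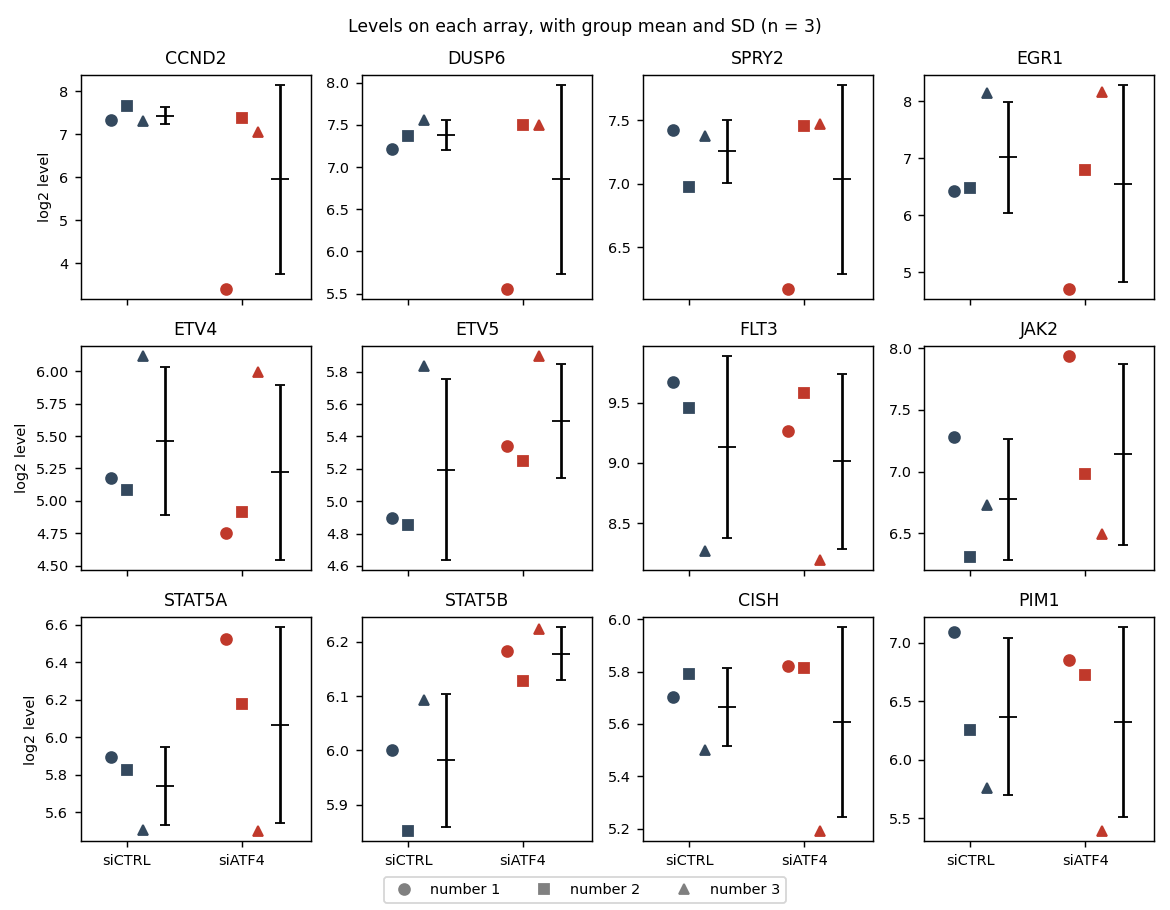
Log2 level of 12 genes on each array (y axis, a scale for each gene) by group (x axis), with marker shapes for the replicate number and the group mean and SD (n = 3) beside the points. CCND2, DUSP6, SPRY2 and EGR1 are lowest on siATF4 replicate 1, and FLT3 and PIM1 are lowest on both arrays of number 3.

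Transcription factors under ERK control differed more in mean between number 3 and the other arrays than between the siRNAs. Number 3 minus the other arrays came to 2.05 for EGR1, 1.07 for ETV4 and 0.78 for ETV5. That contrast was chosen after the values were seen, which favours it over the fixed siRNA contrast. EGR1, an immediate early zinc finger factor, read 4.71, 6.80 and 8.16 with siATF4, against 6.42, 6.48 and 8.14 with siCTRL. Both number 3 arrays were 1.34 or more above the rest, and siATF4 replicate 1 was 1.71 below the next. The difference of -0.46 (SE 0.89) turned to 0.46 without siATF4 replicate 1, and a second feature gave -0.26. ETV5, an ETS factor induced by ERK, stood at 5.34, 5.25 and 5.90 against 4.90, 4.85 and 5.84. It was higher at every number, by 0.44, 0.40 and 0.06, with a mean difference of 0.30 (SE 0.31). Its relative ETV4 went the other way at every number, by -0.43, -0.17 and -0.12, with a mean of -0.24 (SE 0.40), or -0.01 without siATF4 replicate 1. With the replicate block the unadjusted p was 0.0565 for ETV5 and 0.0893 for ETV4, and neither passed the adjustment.

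Sprouty proteins bind adaptors and RAF to hold back RAS-ERK signalling. SPRY2 read 6.17, 7.46 and 7.47 with siATF4, against 7.42, 6.97 and 7.38 with siCTRL. Again siATF4 replicate 1 was low, by 0.80, and the difference of -0.22 (SE 0.36) became 0.21 without it. SPRY4 stood at 3.90, 4.89 and 4.50 against 4.70, 4.47 and 4.92, a difference of -0.27 (SE 0.26) that came to -0.0015 without siATF4 replicate 1. SPRY3 lay below the array median and differed by -0.03.

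The 10 MAP kinase phosphatases remove phosphate from ERK, p38 or JNK. DUSP6, which acts on ERK in the cytoplasm, read 5.56, 7.50 and 7.50 with siATF4, against 7.21, 7.37 and 7.56 with siCTRL. The single low array was siATF4 replicate 1, 1.65 below the next, and the other 5 lay within 0.35 of each other. Its difference was -0.53 (SE 0.51), or 0.12 without that array. DUSP5, the ERK phosphatase of the nucleus, read 4.12, 3.70 and 5.38 against 4.17, 3.69 and 5.78, so that the arrays matched by number (differences of -0.05, 0.01 and -0.40) and number 3 stood 1.21 above the rest. DUSP4, the other nuclear inducible enzyme, was also highest at number 3 and differed by -0.12, or 0.09 without siATF4 replicate 1, at levels below the array median. DUSP16, which acts on JNK and p38, was lowest on siATF4 replicate 1 by 0.53, with a difference of 0.01, or 0.36 without that array.

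In this class 5 of 10 phosphatases were lower and 5 higher (46.2% of all genes were lower). DUSP8, a JNK and p38 phosphatase, read 4.60, 4.35 and 4.12 with siATF4, against 4.32, 3.79 and 4.18 with siCTRL, a difference of 0.26 (95% interval -0.18 to 0.71), or 0.14 without siATF4 replicate 1. DUSP1, the stress-induced enzyme of the nucleus, stood at 5.75, 5.69 and 4.82 against 5.22, 5.42 and 5.05, a difference of 0.19 (SE 0.26), or 0.03 without siATF4 replicate 1. The remaining phosphatases of this class were DUSP2 at -0.15, DUSP7 at 0.03, DUSP9 at -0.06 and DUSP10 at 0.08. None had groups apart (2.59% of all genes were lower without overlap and 3.3% higher). Without siATF4 replicate 1 DUSP2 came to 0.03 and DUSP10 to -0.09.

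The other 14 DUSP genes, which act mostly outside ERK feedback, ranged from -0.31 to 0.38. DUSP18 read 5.93, 5.45 and 6.07 with siATF4, against 5.23, 4.96 and 6.12 with siCTRL, a difference of 0.38 (SE 0.32). DUSP3, a small phosphatase also known as VHR, stood at 7.55, 6.72 and 5.57 against 6.91, 6.31 and 5.57. It was lower on the arrays of number 3 than on the others in both groups, was highest on siATF4 replicate 1 by 0.64, and differed by 0.35 (SE 0.54), or -0.12 without that array. DUSP19, a phosphatase tied to the JNK pathway, came closest to the unadjusted threshold: 4.79, 5.15 and 4.80 with siATF4, against 5.30, 5.10 and 5.24 with siCTRL, a difference of -0.31 (SE 0.14, adjusted p = 1.00 by limma). DUSP26, DUSP23, DUSP22, DUSP29 and DUSP21 were lower by at most 0.12 in size, and DUSP15, DUSP28, DUSP12, DUSP13A, DUSP11 and DUSP14 were higher by 0.01 to 0.18. In total 9 members lay below the median feature of the array (3.91), where a difference is less certain.

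The differences depended on the replicate number. At number 1, 33 of 52 members were lower with siATF4 (48.8% of all genes), at number 2 only 14 (46.3%), and at number 3 30 (45.5%). The medians of the members were -0.26, 0.14 and -0.04, beside 0.01, 0.02 and 0.02 for all tested genes. Sprouty genes had a median of -0.79 at number 1 and 0.42 at number 2, and the receptor and JAK list -0.40 and 0.30. Without both arrays of number 1, 19 of 52 members were lower.

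**Figure D3:**
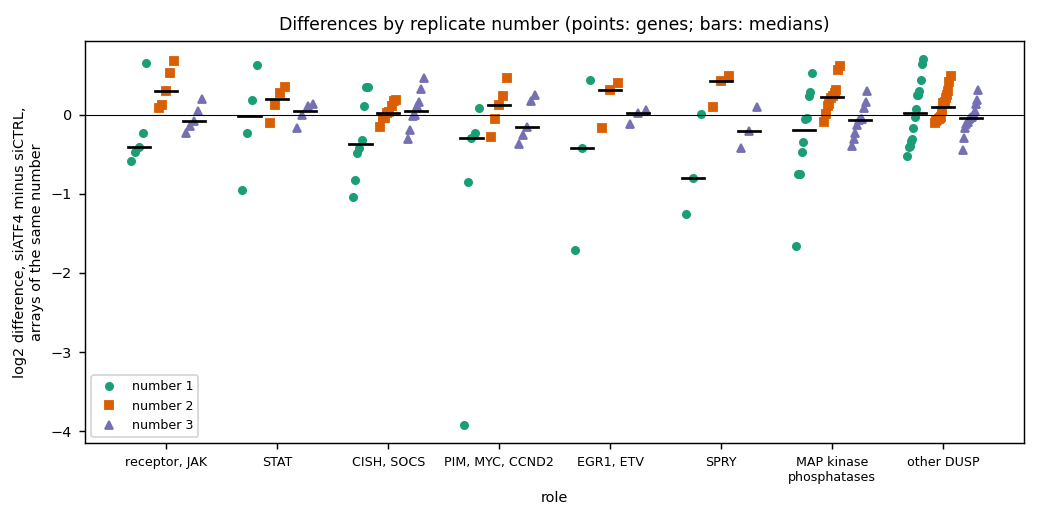
Log2 difference between the siATF4 and siCTRL arrays of the same replicate number (y axis) for each gene, by role (x axis) and number (colour and shape), with bars at medians. Number 1 spreads down to -3.92 for CCND2, whereas numbers 2 and 3 stay within 0.68 of 0.

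A pair of array patterns ran through the members, described here with limits chosen after the values were seen. The siATF4 replicate 1 array lay below all others by at least 0.5 for 7 members: CCND2, EGR1, DUSP6, SPRY2, SOCS4, SPRY4 and DUSP16 (2.71% of all genes). It lay above all others by as much for JAK2 and DUSP3 (3.22% of all genes). The same array was the lowest of the 6, by any margin, for 18 members (23.6% of all genes). Replicates 2 and 3 of siATF4 were lowest by 0.5 for 0 members (0.0605% and 0.296% of all genes), and siCTRL replicate 1 was highest by that margin for PIM2 (0.497% of all genes).

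Both arrays of number 3 were above the other 4 for 7 members: EGR1, DUSP5, ETV4, ETV5, DUSP18, SOCS7 and DUSP4 (16.7% of all genes). They were below the other 4 for 14 members (12.5%), among them FLT3, PIM1, DUSP3, JAK3, STAT5A, CISH, MYC and SOCS1, SOCS2 and SOCS3. The mean of number 3 minus the other arrays was 1.66 for DUSP5, and -1.26 for FLT3 and -1.15 for PIM1. These arrays also had low CSF1R (5.10 and 5.05, with 6.22 to 8.18 elsewhere) and high MPO (10.45 and 10.17, with 5.58 to 9.53 elsewhere), and the part of these markers in the member values was not tested.

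**Figure D4:**
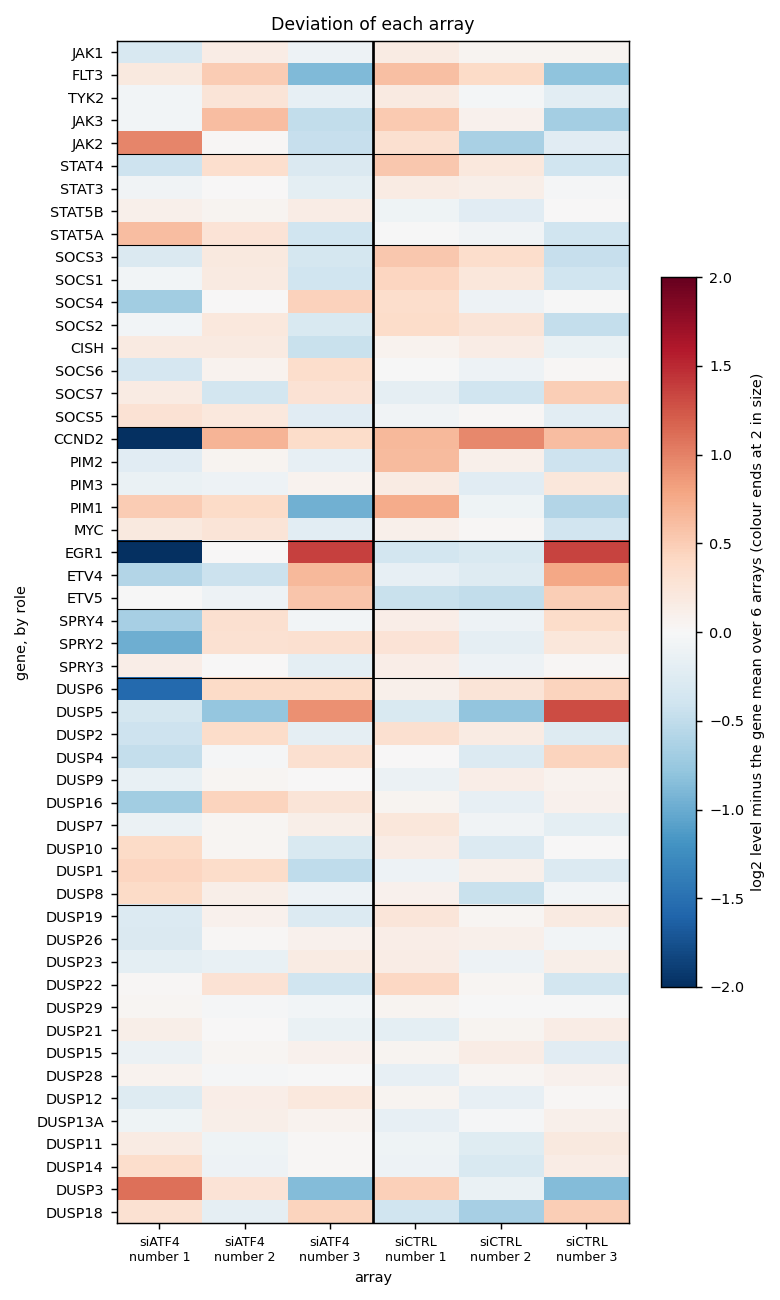
Log2 level of each gene minus its mean over the 6 arrays (colour, ending at 2 in size, passed by CCND2 and EGR1 on siATF4 replicate 1), with genes in rows by role and arrays in columns. Number 3 columns resemble each other in both groups for EGR1, ETV4, ETV5, DUSP5, FLT3 and PIM1.

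Genes around the members, listed with earlier results of these data known, were not called either. In the RAS-ERK cascade 17 of 27 listed genes were measured, of which 6 were lower and 11 higher with a median of 0.08. RASGRP4, a RAS activator of myeloid cells, differed by 0.85 (SE 0.70) and KSR1, a scaffold of the cascade, by -0.35 (SE 0.27), or -0.20 without siATF4 replicate 1. RASGRP4 read 6.97 on siATF4 replicate 1 and 4.20 to 4.60 on the other arrays, and its difference was -0.04 without that array. The RAS exchange factor SOS2 stood higher on all siATF4 arrays, by 0.32 (SE 0.15), and was chosen for mention after its values were seen. It was 1 of 17 measured genes, beside 3.3% of all genes placed higher without overlap.

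Other early genes that ERK induces numbered 17 measured of 20, with 10 lower and 7 higher and a median of -0.06. JUN, an AP-1 subunit, differed by 0.61 (SE 0.59) and ERRFI1, an inhibitor of the EGF receptor, by -0.53 (SE 0.35), or -0.18 without siATF4 replicate 1. Among other STAT5 targets 8 of 12 were measured and 3 were lower. BCL2A1, an anti-apoptotic relative of BCL2, differed by -0.92 (SE 0.53), and the repressor BCL6 by 0.24 (SE 0.33), or -0.12 without siATF4 replicate 1. BCL2A1 read 4.69, 5.73 and 4.92 with siATF4, against 7.07, 6.05 and 4.98 with siCTRL, and its difference was -0.40 without siCTRL replicate 1.

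The list of cytokine receptors, most but not all of which use JAK kinases, had 7 measured of 15, with 3 lower and 4 higher. CSF1R, itself a tyrosine kinase like FLT3, differed by 0.57 (SE 0.78) and the G-CSF receptor CSF3R by 0.53 (SE 0.80). Without siATF4 replicate 1 these came to -0.26 and -0.11. Only 3 of 15 listed brakes on JAK and FLT3 were measured: the adaptors SLA2 and SLA, at 0.07 and 0.03, and the kinase LYN, at -0.03. For comparison, amino acid synthesis genes under ATF4 control were lower in 8 of 8 measured cases (46.2% of all genes were lower) with a median of -0.57, and with medians of -0.28, -0.36 and -0.89 at numbers 1, 2 and 3. The interferon genes above were lower in 18 of 18 cases, so a one-sided count was not limited to this list. The lists differed in other counts. Genes lower in every replicate number were 6 of the 8 synthesis genes and 3 of the 18 interferon genes (9.2% of all genes). Separate group ranges, with siATF4 lower, were seen for 4 synthesis genes and 0 interferon genes (2.59% of all genes). Unadjusted limma p-values below 0.05 were seen for 3 and 0 (1.46% of all genes). The measured genes came from 12 listed synthesis genes and 25 listed interferon genes. The synthesis genes were led by PSAT1 at -1.01 (SE 0.30) and ASNS at -0.70 (SE 0.38), and none of the 8 was called over all genes. Without siCTRL replicate 3 PSAT1 and ASNS came to -0.64 and -0.25.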

How the data were processed

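RNA of 6 samples (100 ng each) was labelled with a whole-transcript kit for Affymetrix arrays, as the labels' protocols state. The deposited values were read as log2 from their range, since the log base, background correction and normalization are not given in the sources used here. Per the submitters' processing notes the tool was Partek. Close array medians were taken as a sign of normalization by the authors.

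Of 53617 features 16098 carried 1 gene symbol in the platform annotation, 37519 had none and 0 had several. Each gene took its brightest feature over the 6 arrays: 47 members had 1 feature and 5 had several (CCND2, DUSP5, EGR1, SOCS3, SPRY3). No dim filter was applied. Symbols and biotypes came from RefSeq's gene table of GRCh38.p14 (all 16098 identifiers matched).

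Groups were compared by the eBayes test of limma 3.58.1 (R 4.3.3) on a linear fit of group alone. P-values were adjusted by Benjamini-Hochberg over 14884 genes, with a threshold of 0.05. SE and the 95% intervals are limma's moderated ones, SD is over 3 arrays, and differences are siATF4 minus siCTRL. The fit was tested on simulated data with independent noise and planted differences larger than that of any member. That test does not show the power for differences of the members' size. The members and gene lists were chosen with earlier results of these data known, so lists have counts and medians and no test. Genes given array by array were ATF4, the 2 members of each role with the largest differences, and any member with groups apart or an unadjusted p below 0.05; others were added after their values were seen.

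Deviations from the group means correlated between arrays of the same number at 0.20, 0.40 and 0.62, each over 0.1, so the numbers were treated as pairs in an added fit with the replicate block. That pairing comes from the data. The siATF4 replicate 2 array correlated at 0.48 with siCTRL replicate 1. Alternatives were the block, quantile normalization, equal medians, array weights, a robust prior with a variance trend, a filter on the dimmest 33% of genes, feature means in place of the brightest feature, adjustment over all features, and each array left out. Leaving out both arrays of a number was chosen after seeing the data. The number of arrays limits the precision.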

Additional observations from a re-analysis of the deposited data

How the results depend on the processing

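By limma 0 genes passed the adjusted threshold under each alternative, with each array left out, and with both arrays of a number left out (1.46% of genes had an unadjusted p below 0.05 with all arrays), and the lowest adjusted p of a member over the alternatives was 0.997. Fitting the replicate number as a block left all calls as they were. Members with an unadjusted limma p below 0.05 numbered 1 with quantile normalization (1.76% of all genes). They numbered 1, 1 and 3 without siATF4 replicates 1, 2 and 3 (1.32%, 2.65% and 2.3%). Without siCTRL replicate 3 there were 4 (2.53%). Leaving out both arrays of number 2 gave 1 (0.967%), and of number 3 gave 4 (2.1%). Under the other settings there were 0. The count of members lower was 24 to 32 over the fits of all arrays or 5 arrays (24 of the 46 members kept when dim genes were dropped). Without both arrays of number 1, 2 or 3 it was 19, 34 and 31, with median differences of 0.05, -0.11 and -0.06. That median was also above 0 without siCTRL replicate 1 (0.0090). The direction of many members hung on single choices. With quantile normalization DUSP21 turned to 0.00090 and DUSP7 to -0.012. With array weights DUSP15 turned to -0.011, DUSP21 to 0.048, DUSP7 to -0.040, DUSP9 to 0.017 and EGR1 to 0.089, while CCND2 came to -0.71 and DUSP6 to -0.10. With each array left out in turn 22 members kept their sign, among them CCND2, STAT5A, STAT5B, STAT3, MYC and ETV5, and 30 did not. Sizes moved among the former too: without siCTRL replicate 3 MYC came to 0.021, without siATF4 replicate 1 STAT5A to 0.097, without siATF4 replicate 3 ETV5 to 0.098 and without siCTRL replicate 1 SOCS1 to -0.0039. The differences of the 30 ran from -0.17 to 0.15 for CISH, -1.26 to 0.46 for EGR1, -0.63 to 0.088 for ETV4, -0.55 to 0.29 for FLT3, -0.034 to 0.68 for JAK2, -0.29 to 0.32 for JAK3, -0.35 to 0.42 for PIM1, -0.48 to 0.042 for PIM2, -0.36 to 0.059 for SOCS2, -0.42 to 0.15 for SOCS4, -0.11 to 0.24 for SOCS6, -0.12 to 0.32 for SOCS7, -0.44 to 0.21 for SPRY2, -0.11 to 0.053 for SPRY3 and -0.086 to 0.14 for TYK2. For MAP kinase phosphatases they ran from -0.093 to 0.25 for DUSP10, -0.21 to 0.36 for DUSP16, -0.37 to 0.026 for DUSP2, -0.31 to 0.085 for DUSP4, -0.64 to 0.47 for DUSP5, -0.85 to 0.12 for DUSP6 and -0.065 to 0.15 for DUSP7, and for other DUSP genes from -0.019 to 0.20 for DUSP11, -0.034 to 0.20 for DUSP12, -0.0044 to 0.13 for DUSP13A, -0.10 to 0.091 for DUSP15, -0.11 to 0.058 for DUSP21, -0.26 to 0.14 for DUSP22, -0.048 to 0.078 for DUSP28 and -0.12 to 0.87 for DUSP3. The cause was not tested. The number of arrays limits what can be resolved, and members below the array median are less certain.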

Other observations

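Some genes outside the members, chosen for mention after their values were seen, showed the siATF4 replicate 1 array apart as well. That array lay below all others by at least 0.5 for 2.71% of all genes. PAX5, a B-lymphoid transcription factor and the 1 measured of 5 listed B-lymphocyte markers, read 3.76 there and 5.28 to 6.12 on the other 5 arrays. The interferon-induced membrane protein gene IFITM1 read 4.44 there and 7.86 to 8.29 elsewhere. KRT18, an intermediate filament gene, read 6.11 there and 6.87 to 7.40 elsewhere. The other measured genes of its list were not low there. KRT8 read 4.40 on that array and 4.31 to 5.03 elsewhere, and EPCAM 4.08 and 3.86 to 4.06. Markers of T cells stayed near the array median: ZAP70, CD5, LCK and CD2 lay between 3.26 and 4.58 on all arrays.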
